A study of Mus musculus with 8 samples.

Results

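The interleukins and their receptors were examined in subcutaneous mouse tumours, as all genes of the deposited read count table whose symbol begins with Il and a digit. This symbol rule took 71 of 18251 genes: 27 ligands or ligand subunits, 37 receptor chains, 5 inhibitors or decoy receptors, and 2 copies of an enzyme, Il4i1 and Il4i1b, that carries the name only by its induction. The tumours came from MC38, a mouse colon cancer line, carrying TetOn-CXCL14, a construct that lets doxycycline (DOX) switch on the chemokine CXCL14. The DOX group held 4 tumours from male C57 mice whose drinking water held DOX at 1 mg/mL over 3 days. The control group held 4 tumours of the same cells from untreated male C57 mice. All mice were 7 weeks old when used. The labels give 300 mm³ as the size both for starting DOX and for harvest. Every tumour in both groups carried the construct, the clonality of the line is not stated, and no DOX-treated tumour without the construct is among the samples, so DOX and CXCL14 cannot be told apart as sources of any difference. The comparison asks what induction of CXCL14 does to the tumour environment.

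Interleukins are secreted proteins by which leukocytes and tissue cells signal to each other. Most act through receptors of paired chains, several of which are shared: the common gamma chain serves IL-2, IL-4, IL-7, IL-9, IL-15 and IL-21, and gp130 serves IL-6, IL-11 and IL-27. These receptors pass the signal to JAK kinases and STAT factors, whereas the IL-1 family signals through MYD88, and decoy receptors and antagonists hold it in check. In tumours they are known for steering T cells, natural killer cells and macrophages.

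Library totals lay between 18685975 and 19307481 counts. Cxcl14 stood at 30.1, 30.2, 20.3 and 15.8 CPM (counts scaled to library size) in DOX tumours 1 to 4, against 9.34, 9.69, 8.30 and 9.59 CPM in control tumours 1 to 4. All DOX tumours were above all controls, as were 3.23% of all tested genes. The log2 fold change of Cxcl14 was 1.38 ± 0.20 (SE). Its adjusted p was 0.387 in edgeR, so Cxcl14 itself was not called. Its unadjusted p in edgeR was 7.37e-05. The adjustment gave the same 0.387 to genes with a larger unadjusted p, such as Il2rg (0.00394) and Il1a (0.0225). Equal adjusted p below therefore do not mean equal unadjusted p. The label names colon cancer cells, but the epithelial markers Epcam, Krt8 and Krt18 were below 1 CPM in every tumour, and Cdh1 was at 6.05 to 8.62 CPM in DOX tumours and 4.77 to 19.8 CPM in controls. Since whole tumours were measured, more cells of a type and more RNA per cell cannot be told apart in any value below. In edgeR, 0 markers of other cell types passed an adjusted p of 0.05. At an unadjusted p below 0.05, 7.65% of all tested genes were higher in DOX tumours. So were 5 of 5 macrophage, 7 of 7 T cell, 3 of 4 CD8 T and cytotoxic and 4 of 5 skeletal muscle markers. Of natural killer cell markers 1 of 3 was, and of tested neutrophil markers 1 of 2. The counts were 0 of 4 for mast cell, 0 of 3 for endothelial and 0 of 3 for tested keratinocyte markers. The 5 macrophage markers added up, without overlap, to between 1284 and 2210 CPM in DOX tumours and between 946 and 1130 CPM in controls, and the 7 T cell markers, with overlap, to 39.8 to 131 CPM in DOX tumours and 20.3 to 40.2 CPM in controls. The 5 skeletal muscle markers summed, also with overlap, to 11.1 to 139 CPM in DOX tumours and 1.15 to 33.8 CPM in controls. The 3 endothelial markers summed to 45.3 to 74.3 CPM in DOX tumours and 45.6 to 78.4 CPM in controls. The 4 neutrophil markers in the table summed to 40.3 to 90.4 CPM in DOX tumours and 34.1 to 42.0 CPM in controls. Among them, Csf3r stood at 33.5 to 82.3 CPM in DOX tumours and 28.9 to 36.3 CPM in controls, while S100a8 and S100a9 were each below 1 CPM in every tumour. Cxcr2 stood at 6.73 to 7.73 CPM in DOX tumours and 5.08 to 8.36 CPM in controls. The part of these cell types in the differences below was not tested.

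Of the 71 members, 44 were detected, meaning 1 CPM or more in at least 4 of the 8 tumours. These were 13 ligands, 27 receptor chains, 3 inhibitors and 1 enzyme. At the edge of this threshold, Il33, the gene of the alarmin IL-33, reached 1 CPM in 5 tumours and was counted, while Il10, the gene of an anti-inflammatory cytokine, stood at 0.466, 1.19, 0.731 and 1.55 CPM in DOX tumours and 0.273, 0.104, 0.519 and 0.858 CPM in controls and was not. The filter of the test kept 47 members, these 44 with Il10, Il5ra and Il9r. A member could pass it through the group in which it was higher, so counts over the 47 describe those genes and not all members.

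The 24 members that were not tested had at most 13 counts in any tumour and at most 63 over all 8. They included 13 ligands, among them the T cell cytokine genes Il2, Il4, Il5, Il13, Il17f, Il21 and Il22, and also Il6 and Il23a. Il2, the T cell growth factor gene, had 1, 1, 2 and 2 counts in DOX tumours and 6, 2, 0 and 2 counts in controls. Il4 had 0 counts in each of the 4 DOX tumours and 0, 0, 1 and 0 in controls, and a count of 0 allows a level of up to 0.155 to 0.160 CPM in these DOX libraries. Il12a, the gene of the subunit that with the Il12b product forms IL-12, had 1, 2, 2 and 0 counts in DOX tumours and 1, 0, 0 and 1 in controls. For these ligands a difference between the groups was not detectable at this depth. The chain of the IL-25 receptor, Il17rb, had 2, 3, 3 and 2 counts in DOX tumours and 0, 1, 0 and 0 in controls, too few for the test. No gene of the read count table carried the symbol Il3, Il9, Il17a, Il25 or Il31, so nothing is said here of those ligands.

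**Figure D1:**
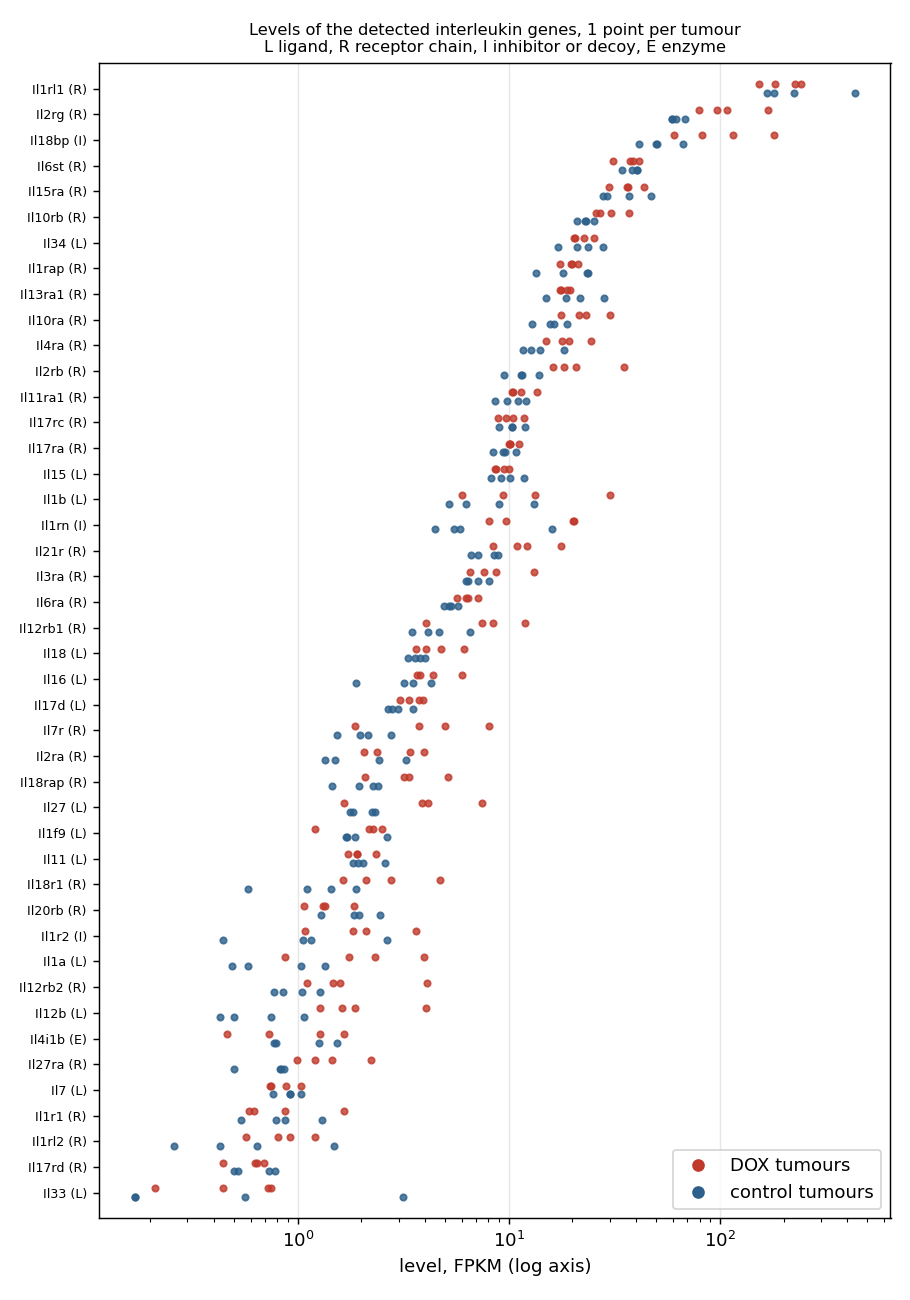
Levels of the 44 detected members in FPKM (as deposited, a level per gene length and library size; log axis), with 1 red point per DOX tumour drawn above 1 blue point per control tumour. Il1rl1 is the highest row, with DOX tumours between 153 and 242 FPKM and controls between 167 and 434 FPKM, and receptor chains fill most of the upper rows.

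Levels per length spanned a wide range. On the FPKM scale, 15 of the 47 tested members had a median over the 8 tumours above 10, and 9 had one below 1. Il1rl1, which encodes ST2, the receptor chain for IL-33, led with a median of 203 FPKM. Next came the common gamma chain gene Il2rg at 74.3 FPKM, Il18bp, the gene of the soluble IL-18 binding protein, at 63.7 FPKM, and Il6st, the gene of gp130, at 38.6 FPKM. Among ligands, Il34, whose product binds the CSF1 receptor, was highest with a median of 21.8 FPKM, followed by Il15 at 9.33 FPKM and Il1b at 9.15 FPKM. The last 2 overlapped in their ranges, with Il15 between 8.19 and 11.8 FPKM and Il1b between 5.23 and 30.2 FPKM. Il33, the ligand of the most abundant receptor chain, had a median of 0.50 FPKM.

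No member passed an adjusted p of 0.05 in edgeR's quasi-likelihood test, where 1 of 13436 genes (0.00744%) did; the smallest adjusted p among the members was 0.387. At an unadjusted p below 0.05, 15 of the 47 tested members (31.9%) were higher in DOX tumours, against 7.65% of all tested genes, and 0 were lower, against 3.95%. In DESeq2, 3 members passed an adjusted p of 0.05, all higher, where 0.422% of its tested genes did. They were Il2rg, Il12b and Il2rb. The groups did not overlap, with DOX higher, in 5 tested members (Il2rg, Il12b, Il2rb, Il27ra and Il10rb), against 3.23% of all tested genes. Over the 47, the median log2 fold change was 0.35, against -0.01 over all tested genes. Without DOX tumour 4 the median of the members was 0.22.

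By role, 11 of 29 tested receptor chains (37.9%), 3 of 14 ligands (21.4%) and 1 of 3 inhibitors had an unadjusted p below 0.05, all higher in DOX tumours. The share over all tested genes was 7.65%. The medians of their log2 fold changes were 0.35 for receptor chains and 0.27 for ligands. By family, these members were 5 of 9 in the IL-6 and IL-12 family, 4 of 11 around the common gamma chain, 4 of 14 in the IL-1 family, 2 of 4 in the IL-10 family and 0 of 4 in the IL-17 family. These sets are small, and the same share of 7.65% over all tested genes stands beside each family. Differences between roles and families were not tested.

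**Figure D2:**
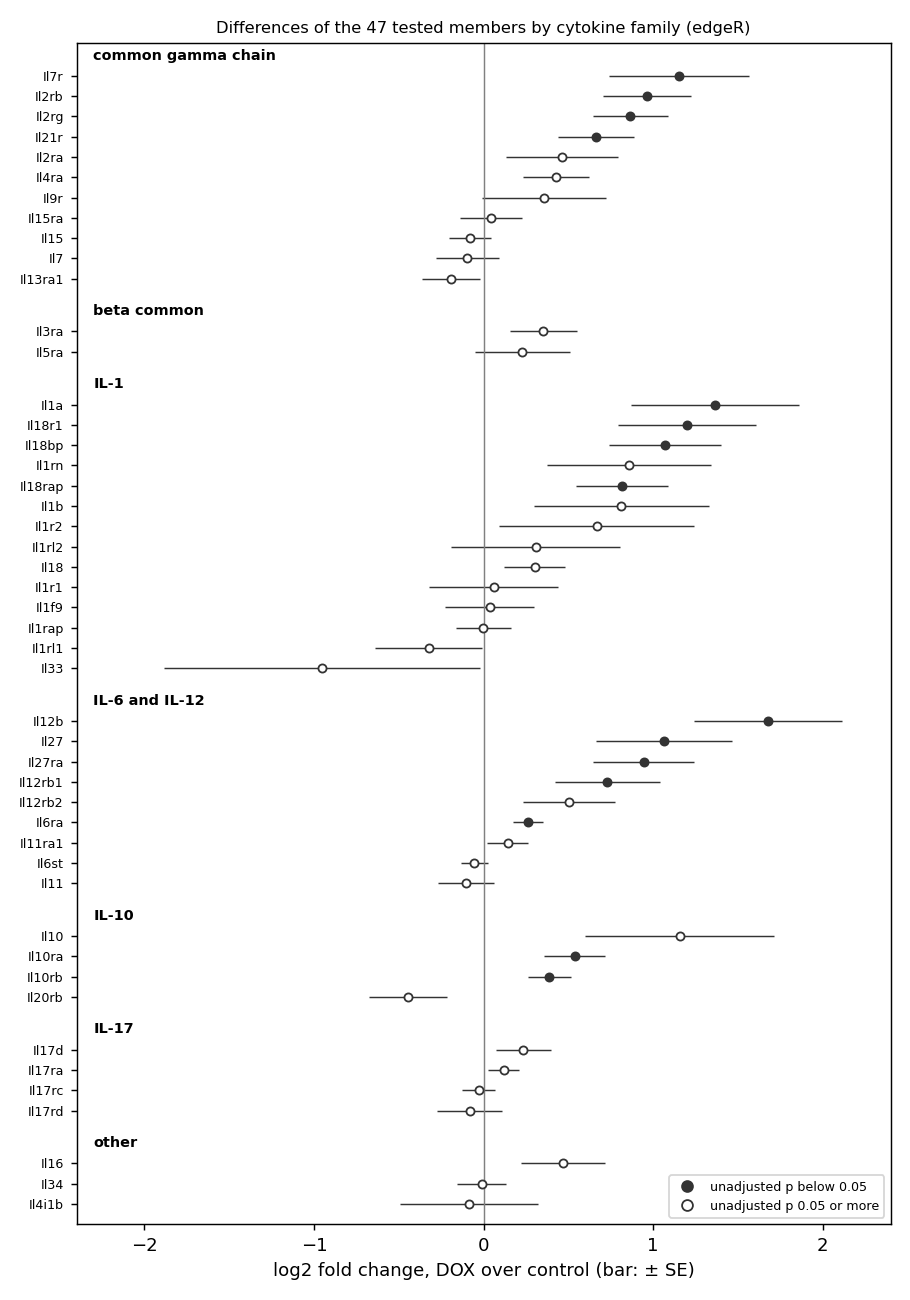
Log2 fold change of DOX over control tumours for the 47 tested members (points, edgeR; bars ± SE), grouped by family, with filled points for an unadjusted p below 0.05. All 15 filled points lie right of 0, from Il6ra at 0.26 to Il12b at 1.68, and the lowest point is Il33 at -0.95 with a wide bar.

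Around the common gamma chain, the 4 members with an unadjusted p below 0.05 were all receptor chains, namely Il2rg, Il2rb, Il7r and Il21r. Il2rg, on chromosome X (101264385 to 101268255, GRCm38.p6), had the smallest p of all members. Its level was 125, 171, 152 and 278 CPM in DOX tumours 1 to 4, against 98.3, 93.9, 97.6 and 109 CPM in control tumours 1 to 4. Controls lay close together and every DOX tumour stood above them, with DOX tumour 4 far ahead. The means were 182 ± 67.0 CPM in DOX and 99.6 ± 6.37 CPM in control tumours (SD, n = 4 each), which is 0.87 ± 0.22 on the log2 scale (SE; adjusted p = 0.387 with edgeR and 0.0240 with DESeq2). Without DOX tumour 4 it was 0.59.

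Il2rb, the signalling beta chain of the IL-2 and IL-15 receptors (chromosome 15, 78479256 to 78511621), had 52.1, 60.5, 69.9 and 124 CPM in DOX tumours and 34.3, 36.4, 46.4 and 39.5 CPM in controls. The groups did not overlap, and the log2 fold change was 0.97 ± 0.26 (SE; adjusted p = 0.387 with edgeR and 0.0247 with DESeq2), or 0.64 without DOX tumour 4. Il7r, the IL-7 receptor chain of resting T cells, stood at 5.80, 15.5, 11.8 and 26.2 CPM in DOX tumours and 8.96, 6.17, 6.69 and 4.82 CPM in controls. DOX tumour 1 lay among the controls, and the log2 fold change was 1.15 ± 0.41 (SE; adjusted p = 0.387), or 0.73 without DOX tumour 4. Il21r, the receptor chain of IL-21, had 0.67 ± 0.22 (SE; adjusted p = 0.387), or 0.42 without DOX tumour 4, with 21.2 to 47.4 CPM in DOX tumours and 17.3 to 22.7 CPM in controls. Its counts were whole numbers in 1 of 8 libraries and those of Il7r in 0 of 8, and how reads came to be divided in them is not stated.

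The other tested members of this group had an unadjusted p above 0.05. Il2ra, the high-affinity alpha chain found on regulatory and activated T cells, had a log2 fold change of 0.46 ± 0.33 (SE), with 8.85, 14.7, 10.3 and 17.95 CPM in DOX tumours and 14.7, 5.86, 10.4 and 6.59 CPM in controls. Its log2 fold change was 0.27 without DOX tumour 4, 0.76 without control tumour 1 and 0.29 without control tumour 2. Il15ra, which presents IL-15 to neighbouring cells, had 0.05 ± 0.18 (SE), and Il4ra, the IL-4 receptor chain, 0.43 ± 0.19 (SE), or 0.27 without DOX tumour 4. Il13ra1, its partner for IL-13, had -0.19 ± 0.17 (SE), or 0.00 without control tumour 1. Control tumour 1 was its highest tumour, at 106 CPM, and DOX tumours lay between 64.8 and 70.7 CPM. Of the ligands, Il15, a survival factor for natural killer and memory T cells, stood at 10.6, 12.3, 12.2 and 10.7 CPM in DOX tumours and 14.5, 11.2, 12.4 and 10.3 CPM in controls. These ranges overlapped, and its log2 fold change was -0.08 ± 0.12 (SE; adjusted p = 0.828). Il7 had -0.10 ± 0.19 (SE) at 2.07 to 2.91 CPM in DOX tumours and 2.13 to 2.85 CPM in controls.

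**Figure D3:**
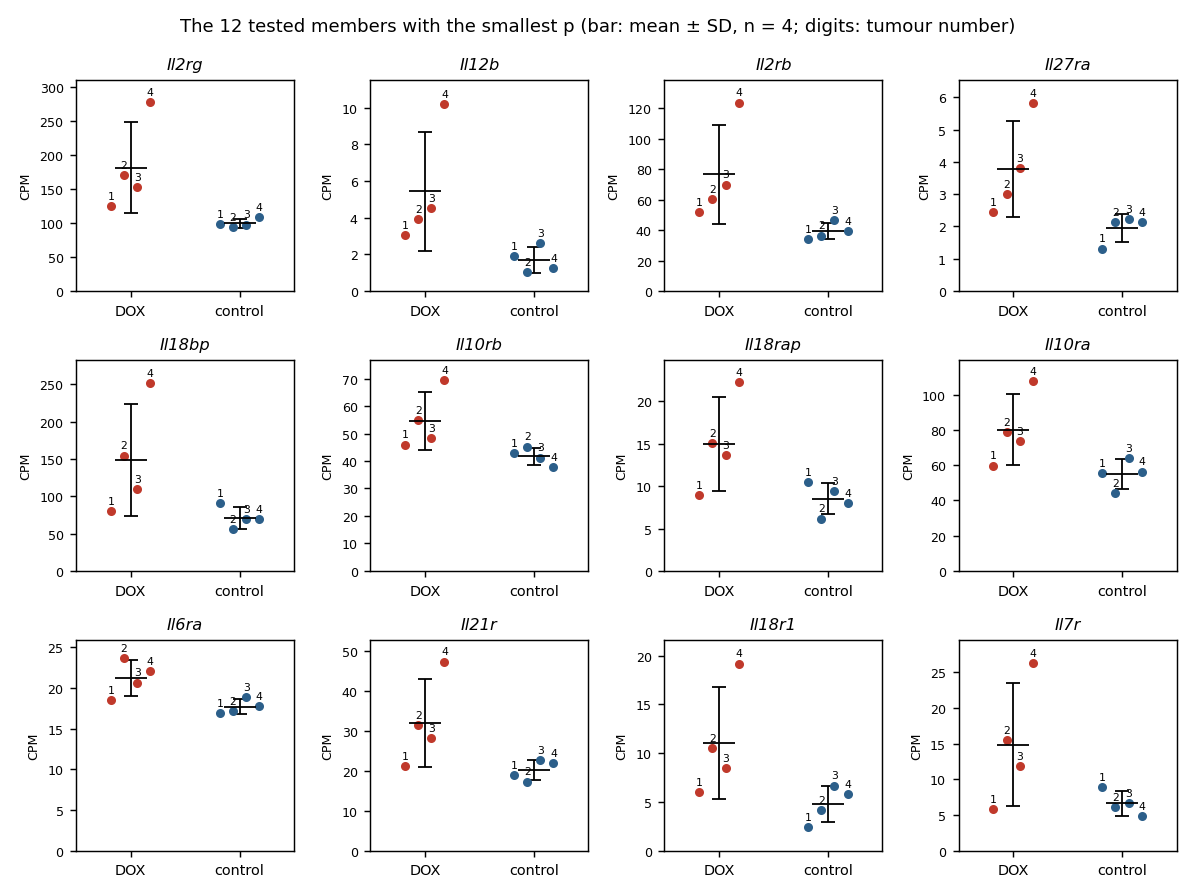
CPM in each tumour for the 12 tested members with the smallest p (red, DOX; blue, control; digits give the tumour number; bars mean ± SD, n = 4). DOX tumour 4 is the highest of the 8 tumours in 11 of the 12 panels, Il6ra being the exception, and DOX tumour 1 is the lowest DOX tumour in all 12.

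In the IL-12 group, Il12b had the largest log2 fold change of all tested members. It encodes the subunit that IL-12 and IL-23 share, made mainly by dendritic cells and macrophages, and lies on chromosome 11 (44400063 to 44414677). It stood at 3.05, 3.94, 4.54 and 10.2 CPM in DOX tumours, against 1.91, 1.04, 2.59 and 1.23 CPM in controls. The groups did not overlap, although DOX tumour 1 was close to control tumour 3. The means were 5.44 ± 3.24 CPM in DOX and 1.69 ± 0.708 CPM in control tumours (SD, n = 4 each), which is 1.68 ± 0.44 on the log2 scale (SE; adjusted p = 0.387 with edgeR and 0.0277 with DESeq2). Without DOX tumour 4 it was 1.18. Its partner subunits Il12a and Il23a had at most 2 and 8 counts in any tumour.

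Of the IL-12 receptor chains, Il12rb1 had an unadjusted p below 0.05 and Il12rb2 did not. Il12rb1, shared with the IL-23 receptor, had 15.7, 29.6, 27.5 and 44.3 CPM in DOX tumours and 24.8, 12.6, 16.3 and 16.9 CPM in controls. Control tumour 1 was above DOX tumour 1, and the log2 fold change was 0.73 ± 0.31 (SE; adjusted p = 0.422), or 0.46 without DOX tumour 4. Il12rb2, the chain that activates STAT4, had 0.50 ± 0.27 (SE), a value that was 0.15 without DOX tumour 4, where it stood at 18.3 CPM against 7.35 to 9.40 CPM in the other DOX tumours and 6.94 to 9.43 CPM in controls.

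IL-27 is made of the products of Il27 and Ebi3 and is read by the product of Il27ra together with gp130. Il27 had 1.76, 4.10, 4.39 and 8.33 CPM in DOX tumours and 2.62, 1.87, 1.97 and 2.41 CPM in controls, so DOX tumour 1 was the lowest of all 8, and the log2 fold change was 1.06 ± 0.40 (SE; adjusted p = 0.394), or 0.63 without DOX tumour 4. Il27ra (chromosome 8, 84030286 to 84042600) stood at 2.43, 3.01, 3.81 and 5.82 CPM in DOX tumours and 1.31, 2.13, 2.23 and 2.14 CPM in controls. The groups did not overlap, by a margin of 2.43 against 2.23 CPM, and its log2 fold change was 0.94 ± 0.30 (SE; adjusted p = 0.387), or 0.66 without DOX tumour 4. Its count was whole in 0 of 8 libraries. Il6st, the gp130 gene, had 219, 208, 202 and 174 CPM in DOX tumours and 192, 217, 204 and 219 CPM in controls. DOX tumour 4, the highest in most members, was the lowest here, and the log2 fold change was -0.05 ± 0.08 (SE; adjusted p = 0.823). Il6ra, the IL-6 binding chain, had 18.5, 23.6, 20.6 and 22.0 CPM in DOX tumours and 16.9, 17.1, 18.9 and 17.8 CPM in controls. Its difference was small, at 0.26 ± 0.09 (SE; adjusted p = 0.387), and was 0.25 without DOX tumour 4. Il11, a fibroblast cytokine gene, had -0.10 ± 0.16 (SE; adjusted p = 0.833) and its receptor chain Il11ra1 0.14 ± 0.12 (SE). The counts of Il11ra1 were whole in 4 of 8 libraries, and its near-identical copy Il11ra2 had at most 3 counts, so their split is uncertain.

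In the IL-18 system, both receptor chains and the secreted inhibitor had an unadjusted p below 0.05, and the ligand did not. Il18, the gene of a cytokine activated by caspase-1, had 4.61, 3.63, 4.23 and 6.09 CPM in DOX tumours and 3.93, 3.63, 3.53 and 3.97 CPM in controls, with a log2 fold change of 0.30 ± 0.18 (SE), or 0.15 without DOX tumour 4. Il18r1, the binding chain, stood at 6.0, 10.5, 8.46 and 19.2 CPM in DOX tumours and 2.46, 4.20, 6.69 and 5.84 CPM in controls. DOX tumour 1 fell within the controls, and the log2 fold change was 1.20 ± 0.41 (SE; adjusted p = 0.387), or 0.80 without DOX tumour 4. Il18rap, the accessory chain, had 8.90, 15.1, 13.7 and 22.2 CPM in DOX tumours and 10.4, 6.17, 9.39 and 8.04 CPM in controls. Its log2 fold change was 0.82 ± 0.27 (SE; adjusted p = 0.387), or 0.57 without DOX tumour 4. Il18bp, whose product neutralises IL-18 and is known to be induced by interferon gamma, lies on chromosome 7 (102015074 to 102018232). It had 80.1, 154, 110 and 252 CPM in DOX tumours and 90.4, 55.8, 68.9 and 68.9 CPM in controls. DOX tumours 2 to 4 were above all controls, DOX tumour 1 was not, and the log2 fold change was 1.07 ± 0.33 (SE; adjusted p = 0.387), or 0.70 without DOX tumour 4 and 1.21 without control tumour 1.

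A cluster of 6 genes of IL-1 family receptors, the decoy Il1r2 included, lies on chromosome 1 (40084692 to 40551707), in the order Il1r2, Il1r1, Il1rl2, Il1rl1, Il18r1 and Il18rap, and differed widely in level. Il1rl1 stood at 574, 722, 486 and 794 CPM in DOX tumours and 1398, 574, 527 and 726 CPM in controls. Control tumour 1 was far above the rest, and the other 7 tumours overlapped. The log2 fold change was -0.32 ± 0.31 (SE; adjusted p = 0.719) with that tumour and 0.08 without it. In control tumour 1 the 4 mast cell markers, among them Cpa3 and Mcpt4, summed to 0.437 CPM, while DOX tumours had sums of 18.3 to 46.5 CPM and control tumours 2 to 4 had 9.92 to 38.3 CPM. Mast cells are known carriers of ST2, and their part in the level of Il1rl1 was not tested. The counts of Il1rl1 and Il18r1, whose gene spans are 134 bases apart, were whole in 0 of 8 libraries, and the soluble and membrane forms of ST2 were not resolved.

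Il33 itself had 0.518, 1.76, 1.10 and 1.92 CPM in DOX tumours and 8.08, 1.40, 0.415 and 0.429 CPM in controls. Here too control tumour 1 decided the sign: the log2 fold change was -0.95 ± 0.93 (SE; adjusted p = 0.721) with it and 0.81 without it. Keratinocytes are a known source of IL-33, and their summed markers were at 10.4 to 14.7 CPM in DOX tumours, 11.7 CPM in control tumour 1 and 10.6 to 23.9 CPM in control tumours 2 to 4. Control tumour 1 also had the highest endothelial sum of the 8 tumours, at 78.4 CPM, although the endothelial marker Kdr was lowest there, at 6.17 CPM. Cdh1 was highest there too, at 19.8 CPM. The part of any cell type in the level of Il33 was not tested. Il1rap, the accessory chain that ST2 and the IL-1 receptor share, had a log2 fold change of -0.00 ± 0.16 (SE), with 79.2 to 93.4 CPM in DOX tumours and 60.0 to 105 CPM in controls.

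**Figure D4:**
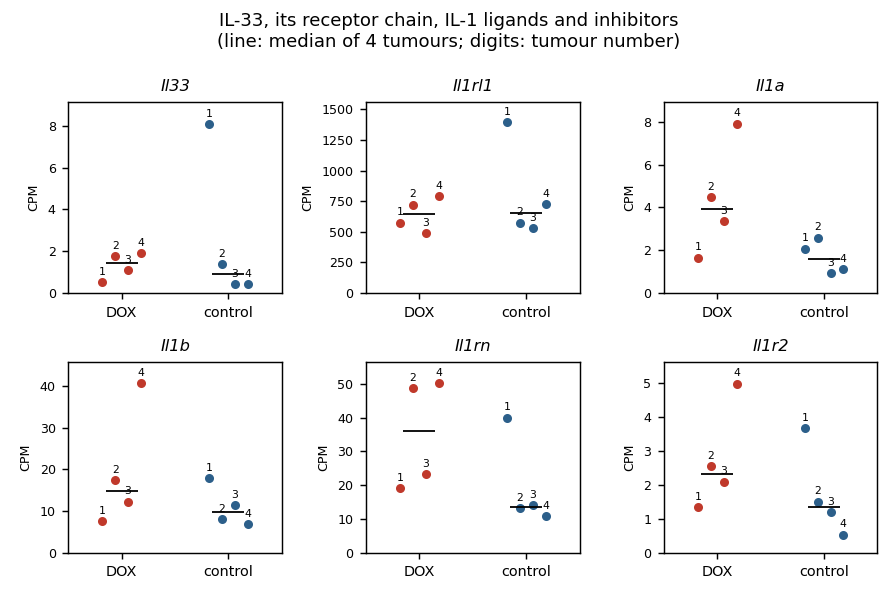
CPM in each tumour for Il33, the receptor chain gene Il1rl1, the IL-1 ligand genes Il1a and Il1b, and the inhibitor genes Il1rn and Il1r2 (red, DOX; blue, control; digits give the tumour number; lines mark medians). Control tumour 1 is the highest control in every panel but Il1a, reaching 8.08 CPM in Il33 against 1.40 CPM in the next control, and DOX tumour 4 is the highest DOX tumour in all 6.

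Of the classical IL-1 ligands, Il1a had 1.66, 4.46, 3.34 and 7.91 CPM in DOX tumours and 2.08, 2.59, 0.934 and 1.13 CPM in controls. DOX tumours 2 to 4 were above all controls, and the log2 fold change was 1.36 ± 0.49 (SE; adjusted p = 0.387), or 0.91 without DOX tumour 4. Il1b, a product of activated macrophages, had 7.66, 17.4, 12.3 and 40.7 CPM in DOX tumours and 17.9, 8.14, 11.5 and 6.91 CPM in controls. The groups overlapped widely, and the log2 fold change of 0.81 ± 0.51 (SE; adjusted p = 0.568) was 0.17 without DOX tumour 4. Il1rn, the gene of the IL-1 receptor antagonist, had 19.1, 48.8, 23.3 and 50.3 CPM in DOX tumours and 40.0, 13.2, 14.1 and 10.9 CPM in controls. Its log2 fold change was 0.86 ± 0.48 (SE; adjusted p = 0.516), or 1.48 without control tumour 1 and 0.65 without DOX tumour 4. Il1r2, the decoy receptor, had 0.67 ± 0.57 (SE), or 1.33 without control tumour 1, 0.37 without control tumour 4 and 0.22 without DOX tumour 4. Il1r1, the signalling receptor, had 0.06 ± 0.38 (SE), with 2.69 to 7.58 CPM in DOX tumours and 2.54 to 6.28 CPM in controls. Of the IL-36 system, the ligand gene Il1f9 had 0.04 ± 0.26 (SE) and the receptor gene Il1rl2 0.31 ± 0.50 (SE). For Il1rl2 the value was 1.01 without control tumour 1, 0.03 without control tumour 4 and 0.13 without DOX tumour 1.

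Both chains of the IL-10 receptor had an unadjusted p below 0.05 in edgeR, higher in DOX tumours. Neither was called, with an adjusted p in DESeq2 of 0.125 for Il10ra and 0.158 for Il10rb. Il10ra, the ligand-binding chain, had 59.7, 78.8, 73.7 and 108 CPM in DOX tumours and 55.7, 44.0, 64.1 and 56.3 CPM in controls, with overlap. Its log2 fold change was 0.54 ± 0.18 (SE; adjusted p = 0.387 with edgeR), or 0.37 without DOX tumour 4. Il10rb, which the receptors of IL-22 and interferon lambda also use (chromosome 16, 91406157 to 91425834), had 46.0, 54.9, 48.4 and 69.5 CPM in DOX tumours and 42.8, 45.3, 41.3 and 37.8 CPM in controls. Its groups did not overlap, but DOX tumour 1 was within 1 CPM of control tumour 2, and the log2 fold change was 0.39 ± 0.13 (SE; adjusted p = 0.387), or 0.26 without DOX tumour 4. Il10 had 1.16 ± 0.56 (SE; adjusted p = 0.458) at levels near 1 CPM. Il20rb, a chain of receptors for IL-20 and IL-24, was the member with the smallest p on the lower side, chosen after its value was seen. It had 4.40, 3.17, 3.24 and 2.67 CPM in DOX tumours and 4.64, 3.11, 4.67 and 5.95 CPM in controls, which is -0.45 ± 0.23 on the log2 scale (SE; adjusted p = 0.472).

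In the IL-17 family and among the remaining members, 0 had an unadjusted p below 0.05. Il17ra, the shared chain of IL-17 receptors, had 39.0, 39.3, 39.2 and 45.3 CPM in DOX tumours and 38.8, 32.7, 36.1 and 42.3 CPM in controls, or 0.12 ± 0.09 as a log2 fold change (SE; adjusted p = 0.642). Its partner chain gene Il17rc had -0.03 ± 0.10 (SE), and the ligand gene Il17d 0.24 ± 0.16 (SE; adjusted p = 0.602). Il3ra, the IL-3 receptor chain, had 0.35 ± 0.20 (SE; adjusted p = 0.507), or 0.13 without DOX tumour 4. Il34 had 37.3, 33.8, 42.5 and 35.6 CPM in DOX tumours and 41.0, 46.6, 34.2 and 28.5 CPM in controls, overlapping throughout, with -0.01 ± 0.14 (SE; adjusted p = 0.983). Il16, the gene of a chemoattractant that binds CD4, had 0.47 ± 0.25 (SE; adjusted p = 0.491), or 0.28 without DOX tumour 4 and 0.29 without control tumour 1. The amino acid oxidase genes Il4i1 and Il4i1b overlap on chromosome 7, and their counts were split unevenly between them. Summed, they gave 1.60, 1.97, 2.82 and 3.85 CPM in DOX tumours and 3.55, 3.01, 2.13 and 1.77 CPM in controls, with wide overlap.

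The members did not vary evenly over the tumours. DOX tumour 4 was the highest of the 8 in 27 of the 47 tested members (57.4%), against 24.2% of all tested genes, and control tumour 1 in 7 (14.9%), against 19%. Among DOX tumours, tumour 1 was the lowest in 34 of the 47, against 3946 of all 13436 tested genes. DOX tumour 4 also had the highest summed T cell markers, at 131 CPM against 39.8 to 61.8 CPM in DOX tumours 1 to 3. The same held for macrophage markers, at 2210 CPM against 1284 to 1639 CPM. The neutrophil list summed to 90.4 CPM there, against 40.3 to 61.8 CPM, but 82.3 CPM of this was Csf3r alone. Cxcr2 of that list was at 7.05 CPM in DOX tumour 4, within the range of the other tumours. The share of these markers in the pattern was not tested. Cxcl14 had another order among DOX tumours, with 30.1 CPM in tumour 1 and 15.8 CPM, its lowest DOX value, in tumour 4. How the level of Cxcl14 relates to the members was not tested.

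**Figure D5:**
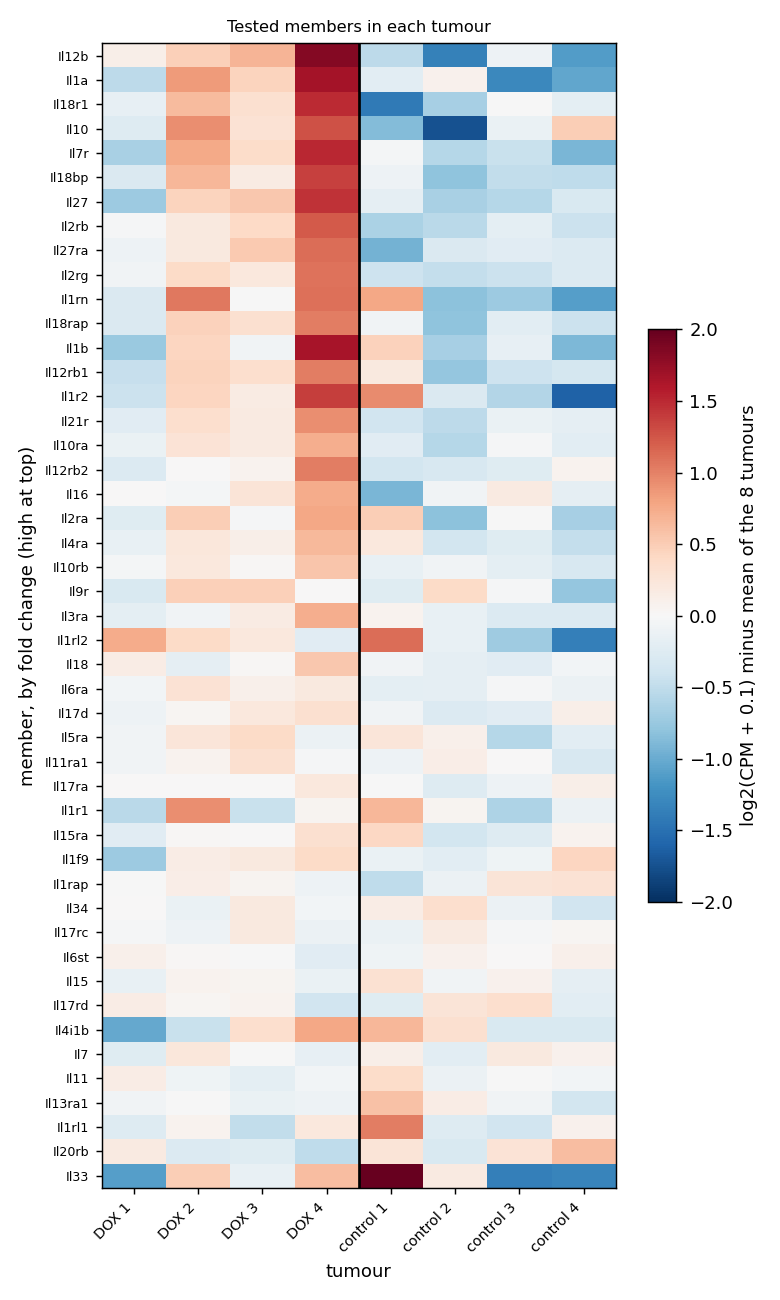
Log2(CPM + 0.1) of the 47 tested members in each tumour minus the mean of the 8 (red above, blue below), with members ordered by fold change from high to low and a line between DOX and control tumours. DOX tumour 4 is the darkest red column in the upper rows, being the highest tumour in 27 of the 47 members, and Il33 in the bottom row is darkest in control tumour 1.

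A list of 43 genes that share receptors with interleukins or pass on their signals was read in the same fit. Of its 40 tested genes 0 passed an adjusted p of 0.05 and 11 had an unadjusted p below 0.05, all higher in DOX tumours (27.5%, against 7.65% of all tested genes); DESeq2 called 0. The 40 tested genes had a median log2 fold change of 0.23. The 6 with the smallest p all had an adjusted p of 0.387. Crlf2, the receptor chain for TSLP, had 21.7, 28.1, 27.3 and 41.4 CPM in DOX tumours and 21.2, 20.7, 19.8 and 19.1 CPM in controls, without overlap, and a log2 fold change of 0.55 ± 0.17 (SE). Ebi3, the partner of the Il27 product, had 0.58 ± 0.20 (SE), with 9.16 to 16.8 CPM in DOX tumours and 6.28 to 9.23 CPM in controls. Stat4, the transcription factor of IL-12 signalling, had 0.71 ± 0.25 (SE), and Tyk2, a kinase of the IL-12 and IL-10 receptors, 0.36 ± 0.13 (SE). Casp1, which cleaves the IL-1β and IL-18 precursors, had 0.33 ± 0.11 (SE), and Ptpn6, a phosphatase that damps JAK signals in leukocytes, 0.62 ± 0.20 (SE). Without DOX tumour 4 the log2 fold change was 0.35 for Crlf2, 0.40 for Stat4 and 0.23 for Tyk2.

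Promoter sequences are shown for 4 of the 15 members leaning higher, Il2rg as the member with the smallest p, Il12b as the member with the largest fold change and 2 whose window held a searched motif. They were picked after the matches were seen, and not every window with a match is shown. RefSeq windows of GRCm38.p6, reaching 250 bases ahead of each start, were found for 36 of the 47 tested members and 9 of these 15. The motifs, searched on both strands, were the STAT site TTCNNNGAA, the interferon element (GAAA, 2 bases of any kind, GAAA), the kappa B site (GGGA, any base, TT, any base, CC) and the PU.1 site GAGGAAGT. The Il7r window is cut to the 185 bases ahead of its outermost start. Capitals mark a match, and each sequence runs 5′ to 3′ on the strand of its gene.
Il2rg (chrX:101268256-101268505, minus strand): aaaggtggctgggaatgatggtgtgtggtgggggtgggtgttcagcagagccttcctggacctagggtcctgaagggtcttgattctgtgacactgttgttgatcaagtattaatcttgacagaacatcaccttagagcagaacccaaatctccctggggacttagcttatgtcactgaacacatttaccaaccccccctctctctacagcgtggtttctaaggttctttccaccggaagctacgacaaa
Il12b (chr11:44399813-44400062, plus strand): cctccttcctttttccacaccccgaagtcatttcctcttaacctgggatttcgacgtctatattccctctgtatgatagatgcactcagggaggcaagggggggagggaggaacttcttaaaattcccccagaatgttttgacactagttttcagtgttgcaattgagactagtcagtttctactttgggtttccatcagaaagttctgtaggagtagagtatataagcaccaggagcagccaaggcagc
Il7r (chr15:9529942-9530126, minus strand): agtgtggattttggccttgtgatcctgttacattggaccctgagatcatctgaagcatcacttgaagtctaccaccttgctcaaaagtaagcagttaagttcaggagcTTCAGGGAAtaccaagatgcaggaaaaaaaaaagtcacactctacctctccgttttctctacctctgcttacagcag
Il18rap (chr1:40515112-40515361, plus strand): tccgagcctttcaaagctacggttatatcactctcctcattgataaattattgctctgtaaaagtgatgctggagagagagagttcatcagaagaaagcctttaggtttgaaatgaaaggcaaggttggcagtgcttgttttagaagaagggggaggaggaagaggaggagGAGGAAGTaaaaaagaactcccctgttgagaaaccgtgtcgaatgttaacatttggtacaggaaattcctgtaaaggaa

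The Il2rg and Il12b windows held no exact match to these patterns, and looser forms of the sites were not searched. The Il7r window held the STAT site 77 bases ahead of its outermost start, and the Il18rap window the PU.1 site 79 bases ahead. Among the other members leaning higher, Il18r1 held the STAT site and Il21r the kappa B site, in windows not shown. Over members, the STAT site was found in 5 of 36 (13.9%) against 7.33% of 10709 tested genes with a window, the kappa B site in 2 of 36 (5.56%) against 1.30%, the PU.1 site in 1 of 36 (2.78%) against 3.09%, and the interferon element in 0 of 36 against 3.34%. These matches describe letters in a short window and were not tied to the differences above by any test.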

How the data were processed

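RNA of 8 subcutaneous tumours, 4 per group from different mice, was sequenced after an mRNA library preparation from 0.1 g of tissue, per the labels' protocols. The authors deposited 1 table of read counts and 1 of FPKM per gene, as the tables name them. The counts the authors deposited are estimated counts, since only 64.9% of values were whole within 0.005; how reads were divided is not stated. HISAT, Bowtie2 and GRCm38.p6 are named, per the submitters' processing notes. No source used here gives the counting tool or use of strand, and overlapping or antisense genes may share reads. A table with 8 columns matching no sample label was not used. Groups and replicate numbers came from the titles.

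Estimated counts were rounded to whole numbers. In edgeR 4.0.16 (R 4.3.3), filterByExpr kept 13436 of 18251 genes, libraries were scaled by TMM, and the robust quasi-likelihood F test compared DOX with control tumours, with Benjamini-Hochberg adjustment over all tested genes at 0.05. The SE is the log2 fold change divided by the square root of F. The common biological coefficient of variation was 14.7%. CPM are TMM-scaled, and FPKM are used for levels between genes. DESeq2 1.42.0 and limma 3.58.1 served as alternatives. The fit was also run on simulated counts in which genes varied independently, which does not cover a shift shared by many genes of a tumour. Chi-square per degree of freedom between libraries was 5.25 to 71.7, so none was treated as a duplicate. Counts of 0 allow up to 3 counts, for counting error only.

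Named members are any past the threshold, the 12 with the smallest p, and the highest tested ligand and receptor chain of each family; of the signalling list, the 6 with the smallest p. Other members are given to complete a ligand and receptor system and were chosen after their values were seen. The members and lists were chosen with earlier results of these data known. Coordinates are RefSeq's for GRCm38.p6, matched by symbol for 71 of 71 members.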

Additional observations from a re-analysis of the deposited data

Results flagged for a closer look

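In groups of 4 tumours, a tumour far from the other 3 of its group was found in 5 of 88 group values over the 44 detected members (5.68%), where chance gives about 1 in 20. Of the 5, 3 were in control tumour 1. Il33 was at 8.08 CPM there, while control tumours 2 to 4 held 0.415 to 1.40 CPM. Il1rn was at 40.0 CPM there, against 10.9 to 14.1 CPM. Il27ra was low there, at 1.31 CPM against 2.13 to 2.23 CPM. In DOX tumour 4, Il17ra was at 45.3 CPM, against 39.0 to 39.3 CPM in the other DOX tumours. In control tumour 4, Il1f9 was at 4.23 CPM, against 2.70 to 2.96 CPM.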

How the results depend on the processing

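No member passed an adjusted p of 0.05 (0 members) under the other edgeR scalings and filters, in limma on log2 FPKM or with any single tumour left out, whereas DESeq2 called 3: Il12b at a log2 fold change of 1.68, Il2rb at 0.96 and Il2rg at 0.86. When single tumours were left out, members with an unadjusted p below 0.05 numbered 11 (without DOX tumour 4) to 21 (without DOX tumour 1), and the median log2 fold change lay between 0.22 and 0.46. Of 447 alternative values for 28 named genes, 433 kept direction and call, 3 were newly called and 11 changed sign. With single tumours left out, log2 fold changes spanned -0.1743 to 0.01587 for Il11, -0.1487 to 0.0184 for Il15 and -0.4823 to 0.07978 for Il1rl1, each highest without control tumour 1, -0.09976 to 0.01276 for Il6st, highest without DOX tumour 4, and -0.1234 to 0.113 for Il34. Il34 was also at 0.01068 and 0.009601 in limma (pseudocounts 0.1 and 1) and at 0.007433 with the replicate block. The cause of these changes was not tested. Same-numbered tumours did not deviate together over all tested genes (correlations -0.02 to 0.09). The labels do not say that the numbers pair mice, and these correlations cannot exclude pairing that touches a part of the genes. With the replicate block, 0 members were called, 16 had an unadjusted p below 0.05 and the median was 0.37. The block lowered the SE of some members, as of Il18r1 from 0.41 to 0.23, and raised that of others, as of Il1b from 0.51 to 0.64. Members near 1 CPM, Il10 and Il33 among them, are limited by depth.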
